A study of Homo sapiens with 6 samples.

Results

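Chromosome 19 carries several arrays of KRAB zinc-finger genes, and 5 of them are described here in the chromatin folding of DKO1 and HCT116 cells. HCT116 is an established human colorectal cancer line, and DKO1 is a derivative of it with knockout of the DNA methyltransferase genes DNMT1 and DNMT3B. DKO1 is a single clone, and its DNMT1 allele is known to leave some truncated protein, so it stands for 1 cell line and not for a clean loss of all methylation. Hi-C counts how often pairs of loci touch, by ligating cross-linked DNA and sequencing the ligation products, and 3 libraries were made from each line, 6 in all. The labels of the 3 libraries of a line name the same processed files, so they were taken as pooled. Each line therefore has 1 value per 20 kb bin and 1 list of domains, with no replicate error, and no test between the lines was possible.

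The clusters were fixed by position on hg19, with no rule on a measured value. Earlier results of these data were known when the clusters were chosen. They lie on chromosome 19 at 11600001 to 12800000 (called 19p13.2 here after its cytogenetic band), 20000001 to 24200000 (19p12), 36900001 to 38300000 (19q13.12), 44300001 to 45000000 (19q13.31) and 52300001 to 54000000 (19q13.41). Together they span 9.2 Mb and hold 459 bins with values in both lines, of 140474 in the whole genome. The rest of chromosome 19 holds 2331 bins. By midpoint, 4 of the 1823 domains listed in DKO1 and 14 of the 4289 listed in HCT116 belong to the clusters, and the rest of chromosome 19 holds 89 DKO1 and 150 HCT116 domains.

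KRAB zinc-finger proteins form the largest family of human transcription factors. Their arrays of C2H2 fingers bind specific DNA sequences, often in transposable elements, and their KRAB domain recruits TRIM28, the scaffold for the histone methyltransferase SETDB1 and for heterochromatin protein HP1. The genes arose by repeated tandem duplication, and many are themselves coated with H3K9 trimethylation, the histone mark of heterochromatin, over their zinc-finger exons. The arrays are embedded in a chromosome that is otherwise among the most gene-dense of the genome. Gene positions on hg19 were not used here, so bins and domains are given by position, and genes are named as background.

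In the RefSeq annotation of GRCh38.p14, which was used for names and neighbourhood only, 251 protein-coding ZNF or ZFP genes were listed on chromosome 19. Allowing at most 2 other genes between neighbours, 148 of them (59.0%) formed the 5 groups that hold ZNF136 (24 genes, from ZNF627 to ZNF791), ZNF91 (37 genes, from ZNF101 to ZNF254), ZNF382 (29 genes, from ZNF565 to ZNF573), ZNF45 (20 genes, from ZNF283 to ZNF180) and ZNF468 (38 genes, from ZNF577 to ZNF331). ZNF136, ZNF91, ZNF382, ZNF45 and ZNF468 are known members of the 5 clusters in the order given above. The groups need not end where the hg19 limits do, and the other 103 ZNF or ZFP genes of the chromosome lie outside them.

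The substrate of the methyltransferases is the CpG dinucleotide, so the CpG content of the promoters was counted (the letters CG, which read the same on both strands, in the 300 bases from 250 before to 50 after each start). Of the 126 promoters matched among the 148 genes, 90.5% held at least 10 CpG, against 97.8% of 93 promoters of the other ZNF or ZFP genes and 73.5% of 960 promoters of other protein-coding genes on the chromosome. Over all 1179 promoters matched on the chromosome the share was 77.3%. By group it was 91.3% (ZNF136), 69.0% (ZNF91), 100% (ZNF382), 93.8% (ZNF45) and 100% (ZNF468). The group around ZNF91 thus lay below other protein-coding genes. The group around ZNF91 had the lowest median, 10 CpG per promoter, and the group around ZNF468 the highest, 25. A promoter is shown from each of the 2 clusters that stood furthest apart in the comparison of the lines, 19q13.31 and 19p12, with each CG in capitals. The ZNF45 promoter (22 CpG) is at chr19:43935233-43935532 and the ZNF91 promoter (11 CpG) at chr19:23395422-23395721, both on the minus strand, as RefSeq sequence of GRCh38.p14. These positions are on another build than the bins and cannot be set beside them. Methylation was not analysed here, and the sequences are a description of the genes only.
ZNF45: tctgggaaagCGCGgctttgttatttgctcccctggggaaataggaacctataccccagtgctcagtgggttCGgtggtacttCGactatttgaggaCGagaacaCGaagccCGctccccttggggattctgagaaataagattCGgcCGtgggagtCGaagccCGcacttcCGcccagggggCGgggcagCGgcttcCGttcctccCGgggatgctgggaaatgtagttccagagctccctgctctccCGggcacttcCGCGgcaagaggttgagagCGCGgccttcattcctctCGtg
ZNF91: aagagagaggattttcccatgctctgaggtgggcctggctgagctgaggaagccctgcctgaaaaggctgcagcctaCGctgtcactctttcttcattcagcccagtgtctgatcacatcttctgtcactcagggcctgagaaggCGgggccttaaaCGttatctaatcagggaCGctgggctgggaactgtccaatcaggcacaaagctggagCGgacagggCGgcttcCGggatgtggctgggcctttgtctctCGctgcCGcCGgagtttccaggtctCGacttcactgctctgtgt

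Compartments were read from the deposited PC1 score, which summarises by principal component analysis which bins share their contacts. Bins above 0 were assigned to compartment A, where active genes gather, and bins below 0 to compartment B, which is mostly silent. The scores had been scaled within each chromosome to a mean of 0 and an SD of 1, so PC1 is given in SD units of its chromosome and its 0 depends on the whole chromosome. The depth of the maps is unknown.

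All 5 clusters lay in compartment B in both lines. In DKO1 8 of the 459 bins (1.74%) were in A, and in HCT116 7 (1.53%), whereas in the rest of chromosome 19 65.6% of bins were in A in DKO1 and 69.7% in HCT116. Only 1 bin of the clusters had a different sign in the lines (0.218%), from B in HCT116 to A in DKO1. The share of bins switched either way was 6.52% in the rest of chromosome 19 and 15.1% over all 140474 bins of the genome (10.2% from A to B and 4.99% from B to A). Most cluster bins lay far from 0. Among bins with an HCT116 PC1 under -1, 0 of 405 in the clusters switched (which allows a share of up to 0.741%) and 0 of 359 in the rest of the chromosome (up to 0.836%), but such bins would need a change of over 1 to switch, so this says little about a difference. These limits cover counting error only. They take bins as independent, which neighbours are not, so they are too narrow.

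Bins of the clusters were among the lowest of the chromosome. They made up 16.5% of its bins but held 57.3% of the 279 bins with the lowest PC1 in DKO1 and 57.7% of those in HCT116. These sets of the lines shared 160 bins, of which 89 lay in clusters. The make-up of these bins differed: 19p12 gave 76 in DKO1 and 30 in HCT116, 19q13.12 gave 38 in DKO1 and 57 in HCT116, 19q13.41 gave 46 in DKO1 and 54 in HCT116, and 19p13.2 gave 0 in DKO1 and 20 in HCT116. The cluster 19q13.31 gave 0 bins in either line. The cut for these sets was a PC1 of -1.398 in DKO1 and -1.439 in HCT116. The 19p12 bins lay near it, with a median of -1.370 in DKO1 and -1.373 in HCT116. In 19p13.2 the lowest DKO1 bin, at -1.393, just missed it. The counts per cluster therefore depend on the cut of each line and do not show that 19p12 lay deeper in DKO1.

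**Figure D1:**
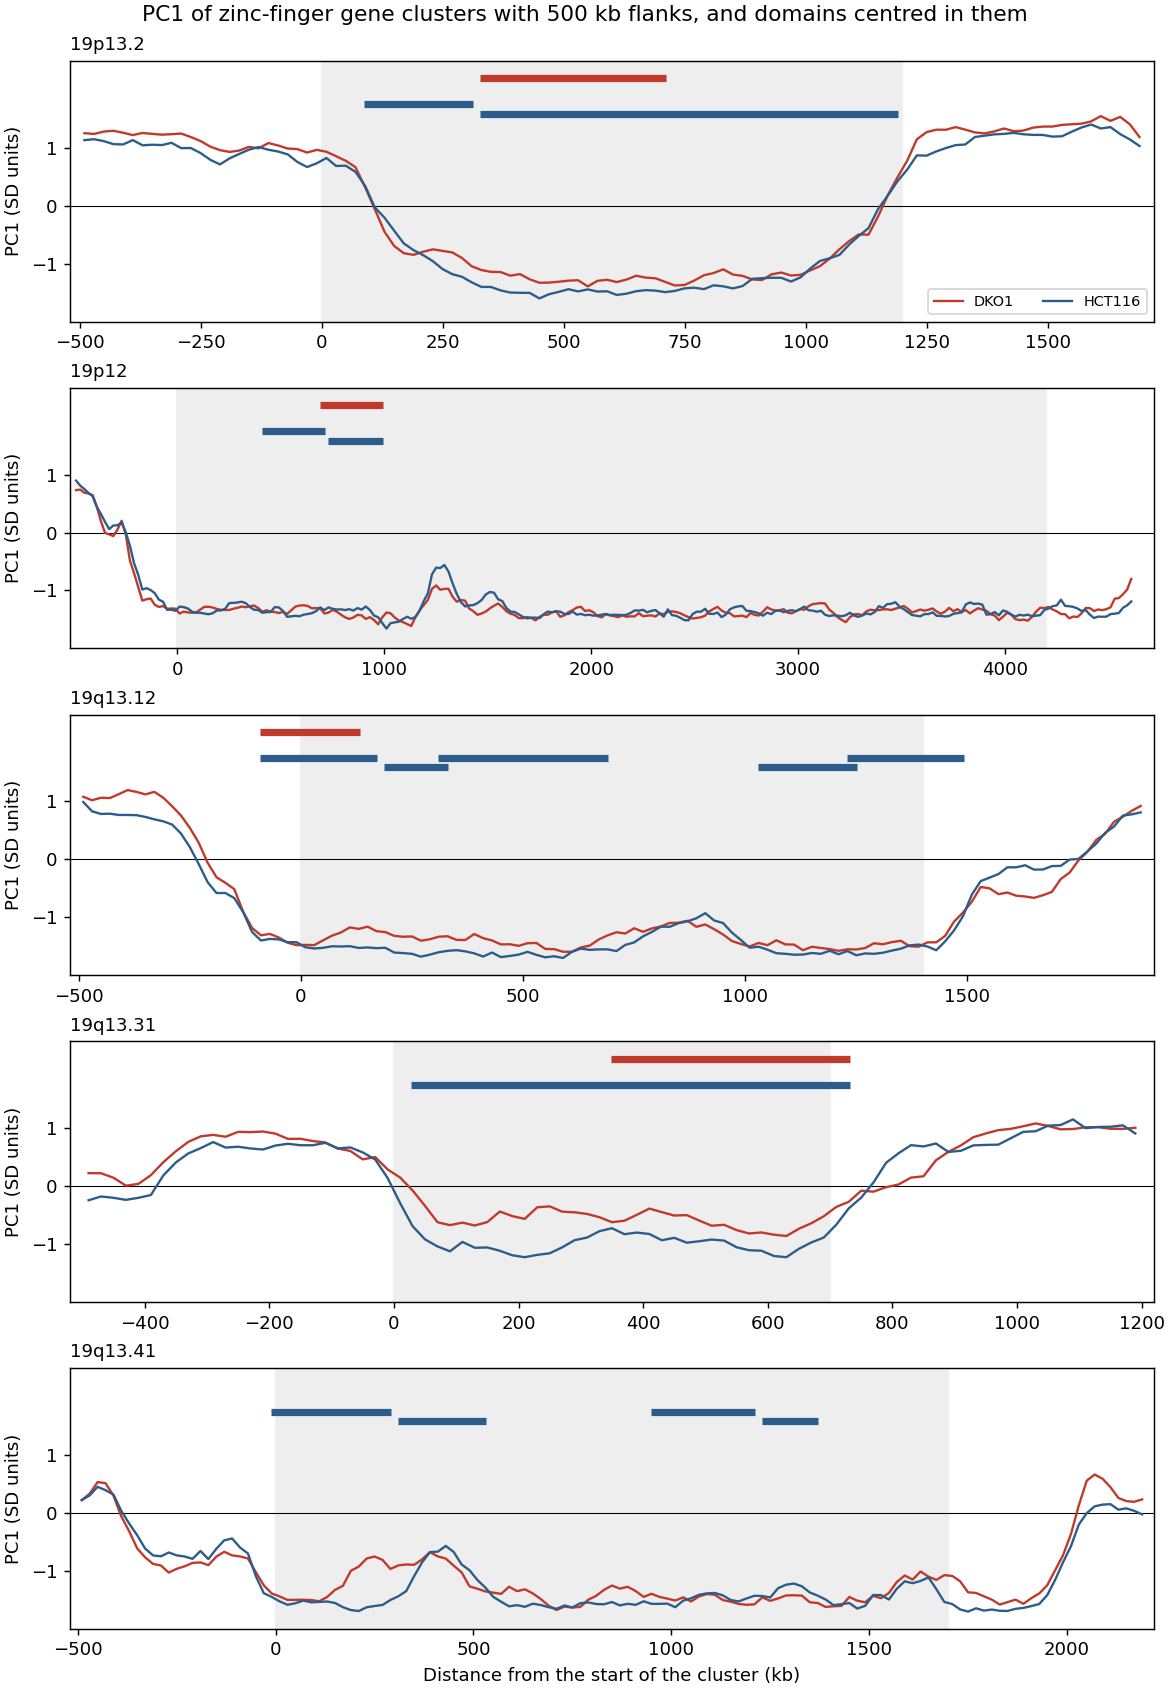
PC1 in SD units (vertical axis) against the distance from the start of each cluster in kb (horizontal axis), for DKO1 (red) and HCT116 (blue), with the cluster shaded and 500 kb of flank on each side. Bars at the top mark the domains with their midpoint in the cluster, staggered for legibility. Both tracks stay below 0 inside the clusters, except at the edges of 19p13.2 and, in DKO1, in the leftmost bin of 19q13.31, and the DKO1 track lies above that of HCT116 in all 35 bins of 19q13.31.

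The cluster 19p12, the largest, was the most uniform and differed least between the lines. It lies next to the centromere and holds ZNF91, a gene known for repression of SVA retrotransposons in primates. All of its 209 bins were in B, and its mean PC1 was -1.37 in DKO1 and -1.34 in HCT116. The bins ranged from -1.61 to -0.913 in DKO1 and from -1.66 to -0.559 in HCT116, with an SD over bins of 0.103 in DKO1 and 0.149 in HCT116. The difference of -0.0226 (DKO1 minus HCT116) has no stable sign: it was 0.105 after the median of the chromosome was subtracted in each line. The bin with the largest fall was at 21280001 to 21300000, with -0.972 in DKO1 and -0.559 in HCT116. It belongs to a local rise of PC1 in the B stretch, whose top stood at -0.913 in DKO1, at 21240001 to 21260000, and at this bin in HCT116. The bin with the largest rise, at 21000001 to 21020000, had -1.38 in DKO1 and -1.66 in HCT116. In none of the 209 bins did PC1 differ by 0.5 or more.

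The cluster 19q13.12 lay deep in B in both lines. Its mean was -1.38 in DKO1 and -1.51 in HCT116, and all 70 bins were in B. PC1 was higher in DKO1 in 62 of the 70 bins, but by less than 0.5 in each of them. The difference was uneven along the cluster: in 4 equal parts from left to right it was 0.241, 0.169, 0.0139 and 0.101 (DKO1 minus HCT116). The bin with the largest rise, at 37040001 to 37060000, had -1.16 in DKO1 and -1.52 in HCT116. The largest fall was at 37840001 to 37860000, with -1.30 in DKO1 and -1.10 in HCT116, near the least negative bin of the cluster in HCT116 (-0.930, against -1.12 in DKO1, at 37800001 to 37820000).

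The cluster 19q13.41 is the telomere-side array. ZNF331, an imprinted gene, is the last of its RefSeq group, and whether it lies inside the hg19 limit was not checked. Its mean PC1 was -1.32 in DKO1 and -1.43 in HCT116, and all 85 bins were in B. In 4 equal parts from left to right the lines differed by 0.289, 0.0547, 0.0311 and 0.0193, so that the difference lay mainly in the first. There a run of 7 bins at 52480001 to 52620000 had a mean of -0.879 in DKO1 and -1.59 in HCT116, and held the bin with the largest rise, at 52540001 to 52560000 (-0.753 in DKO1, -1.61 in HCT116). A local rise to -0.677 in DKO1 and -0.569 in HCT116 lies just to its right, with tops at 52680001 and 52720001. In DKO1 the less negative stretch therefore reached further left than in HCT116. The largest fall in the cluster was at 52780001 to 52800000, with -1.27 in DKO1 and -0.990 in HCT116.

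In the cluster 19p13.2 PC1 was slightly higher in DKO1. Its mean was -0.861 in DKO1 and -0.982 in HCT116. The same number of bins, 7 of 60, was in A in both lines, and these lay at its edges, since the limits of this cluster reach into the flanks. Of 4 equal parts, the middle ones had means of -1.24 and -1.25 in DKO1, against -1.47 and -1.44 in HCT116, while the outer ones differed by 0.0606 on the left and 0.0105 on the right. The bin with the largest rise was at 11860001 to 11880000, with -0.805 in DKO1 and -1.18 in HCT116. The largest fall, at 11740001 to 11760000 on the left slope, had -0.694 in DKO1 and -0.430 in HCT116.

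The shortest cluster, 19q13.31, differed most. This array holds ZNF45 and the ZNF221 to ZNF235 genes, a well-known example of recent tandem duplication. Its mean PC1 was -0.546 in DKO1 and -0.976 in HCT116, a difference of 0.430. PC1 was higher in DKO1 in all 35 bins, by as little as 0.104 (at 44640001 to 44660000) and by as much as 0.822 (at 44520001 to 44540000, with -0.365 in DKO1 and -1.19 in HCT116). The bins ranged from -0.861 to 0.149 in DKO1 and from -1.23 to -0.293 in HCT116. In DKO1 13 bins were above -0.5, against 1 in HCT116, and 0 bins were under -1 in DKO1, against 16 in HCT116. In 4 equal parts from left to right the lines differed by 0.482, 0.536, 0.355 and 0.335, so the difference ran through the whole cluster. It nevertheless stayed in B: 34 of its bins kept their sign, and the bin that switched was the outermost on the left.

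**Figure D2:**
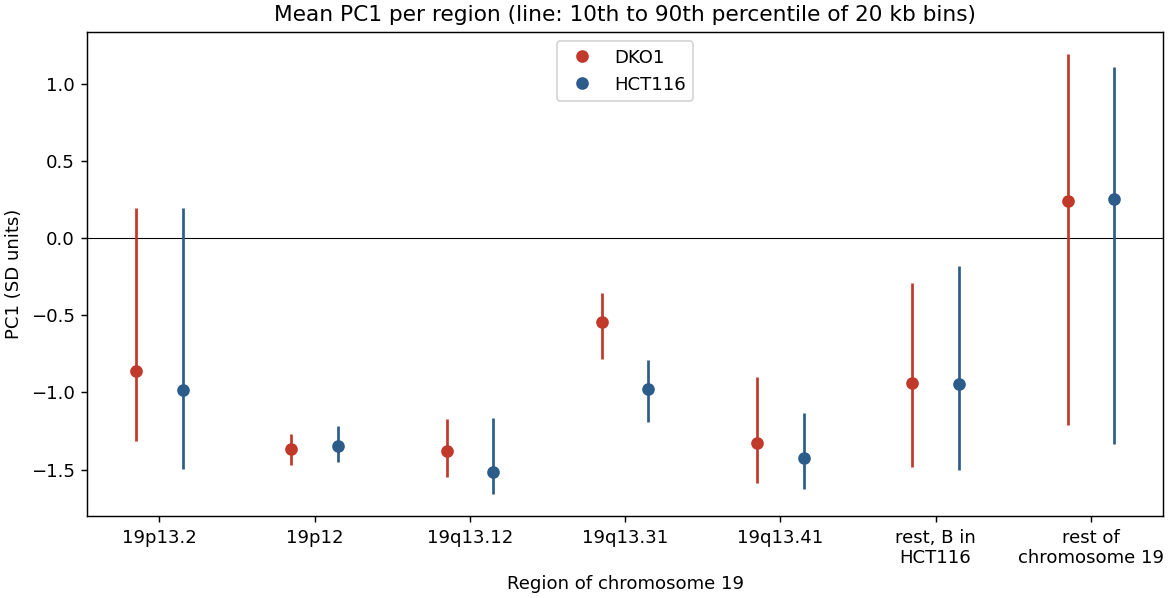
Mean PC1 in SD units (points) with the 10th to 90th percentile of 20 kb bins (lines) in DKO1 (red) and HCT116 (blue), for each cluster, for bins of the rest of chromosome 19 that were B in HCT116, and for the whole rest. The lines show the spread along the chromosome and are no replicate error. The means of 19q13.31 are -0.546 in DKO1 and -0.976 in HCT116, and those of the other clusters lie much closer together.

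In order of mean PC1, 19q13.12 was the lowest and 19q13.31 the highest in DKO1, with 19p12, 19q13.41 and 19p13.2 in between. In HCT116 the order was 19q13.12, 19q13.41, 19p12, 19p13.2 and 19q13.31. By mean, the last pair in HCT116, at -0.982 and -0.976, cannot be put in order without a replicate error, nor can 19q13.12 (-1.38) and 19p12 (-1.37) in DKO1. The mean of 19p13.2 includes its 7 bins in A at the edges. By median it was lower in HCT116 than 19q13.31, with -1.29 against -0.973. Because the scale was set per chromosome, the mean difference over the rest of chromosome 19, -0.0152, was subtracted from that of each cluster. The result does not depend on where 0 lies, although the rest is no independent baseline, since each chromosome was centred as a whole. The median PC1 differed by -0.127 between the lines over the whole chromosome (DKO1 minus HCT116). Less the difference of the rest, the clusters differed by 0.136 (19p13.2), -0.00741 (19p12), 0.146 (19q13.12), 0.445 (19q13.31) and 0.116 (19q13.41).

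Bins with a PC1 at least 0.5 higher in DKO1 made up 14.9% of all bins of the genome, and bins at least 0.5 lower 16.3%. In the clusters 15 bins (3.27%) were higher by this margin and 0 were lower, while in the rest of chromosome 19 1.89% were higher and 5.79% lower. The 15 bins lay in 19q13.31, with 8 of its 35 (22.9%), and in 19q13.41, with 7 of its 85 (8.24%). In 19q13.31 the share stood above that of the genome, and in the other 4 clusters below it. These margins are counted on bins with a mean of 0 in each chromosome, and neighbouring bins share most of their contacts, so the 8 bins are not 8 observations. Consecutive bins, at least 3 in a row, formed 2 runs with a higher PC1 in the clusters, at 44460001 to 44580000 (mean -0.446 in DKO1 and -1.16 in HCT116) and the run in 19q13.41 given above. Outside the clusters and their flanks, 41.7 Mb of the chromosome held 4 such runs with a higher and 15 with a lower PC1 in DKO1.

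Bins of B within a set range of PC1 were compared next. In the rest of chromosome 19, 300 bins had an HCT116 PC1 within the range of 19q13.31. Their mean was -0.795 in DKO1 and -0.776 in HCT116. They shared the range of the cluster but not its depth, since the HCT116 mean of 19q13.31 was -0.976. The HCT116 medians were -0.778 in these bins and -0.973 in 19q13.31. PC1 was higher in DKO1 in 46.7% of them, and at least 0.5 higher in 8.67%. For the deepest bins, with an HCT116 PC1 under -1, the means were -1.33 in DKO1 and -1.41 in HCT116 in the clusters and -1.25 in DKO1 and -1.37 in HCT116 in the rest. These bins were chosen by their HCT116 value, which partly sets the difference, so nothing is read from it.

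The clusters were also set beside other long B stretches, which may hold zinc-finger genes of their own. Chromosome 19 held 10 stretches of negative HCT116 PC1 of at least 700 kb, the length of the shortest cluster. In 5 of them lay a cluster. The largest difference was in a stretch without one, at 43000001 to 43920000, close to the left side of 19q13.31, with a mean of -0.186 in DKO1 and -0.688 in HCT116. The pregnancy-specific glycoprotein genes, another tandem array, are known to lie in that part of the chromosome. PC1 was higher in DKO1 in every one of its 46 bins, of which 13 were in A in DKO1. The stretch of 19q13.31 was second, with a mean of -0.522 in DKO1 and -0.932 in HCT116. The other 4 stretches without a cluster differed by 0.177 (27680001 to 30120000), 0.0137 (56660001 to 58780000), -0.0417 (30400001 to 33080000) and -0.115 (8720001 to 9940000). The stretches of 19p13.2, 19q13.41, 19q13.12 and 19p12, at 0.127, 0.0851, 0.0724 and -0.0212, lay within that range.

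The borders of the B stretches were nearly in the same place in both lines. Of the 10 ends, 9 were changes of sign, and the other, to the right of 19p12, was where the bins stop before the centromere, at 24620000 in both lines. Among the 9 ends 2 were identical, 5 were 20 kb apart and 2 were 40 kb apart, that is, by at most 2 bins. The stretch of 19p13.2 ran from 11700001 to 12760000 in both lines. That of 19p12 began at 19740001 in DKO1 and at 19760001 in HCT116. That of 19q13.12 ran from 36680001 to 38660000 in DKO1 and from 36660001 to 38640000 in HCT116. The ends of the 19q13.31 stretch were 44320001 and 45100000 in DKO1, against 44300001 and 45060000 in HCT116. For 19q13.41 they were 51900001 and 54320000 in DKO1, against 51920001 and 54360000 in HCT116. The lengths were 1060, 4880, 1980, 780 and 2420 kb in DKO1 and 1060, 4860, 1980, 760 and 2440 kb in HCT116.

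The contrast between a cluster and its flanks was measured as the mean PC1 of the 500 kb outside a limit less that of the 500 kb inside it (350 kb for 19q13.31). It was smaller in DKO1 at 6 borders and larger at 4, with a median over the 10 borders of 1.07 in DKO1 and 1.34 in HCT116. Without the right border of 19p12, whose flank was wholly in B, it was smaller at 6 and larger at 3, with medians of 1.11 in DKO1 and 1.39 in HCT116. The steps differed by only -0.00752 on the left of 19q13.12 and 0.0167 on the left of 19p13.2 (DKO1 minus HCT116). These have no clear direction without a replicate error. The sharpest borders were those of 19p13.2, with steps of 1.73 on the left and 2.26 on the right in DKO1 and of 1.72 and 2.16 in HCT116. Both flanks of this cluster were wholly in A in both lines. At 19q13.31 the steps were 1.03 on the left and 1.24 on the right in DKO1, against 1.39 and 1.63 in HCT116. On its left the inside differed by 0.533 and the flank by 0.181, both higher in DKO1. On its right the inside differed by 0.346 and the flank by -0.0440.

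At the other clusters the limits lie inside the B stretch, so part of the flank was itself B. The steps of 19q13.12 were 1.48 on the left and 1.11 on the right in DKO1, against 1.49 and 1.28 in HCT116. At 19q13.41 the left step was 0.506 in DKO1 and 0.831 in HCT116, and the right step 0.710 in DKO1 and 0.454 in HCT116. On the left the inside was higher in DKO1 by 0.228 and the flank differed by -0.0969, and on the right the flank was higher in DKO1 by 0.256. The left step of 19p12 was 0.968 in DKO1 and 1.05 in HCT116, while its right flank, toward the centromere, was as deep in B as the cluster, with steps of 0.111 in DKO1 and 0.0392 in HCT116.

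**Figure D3:**
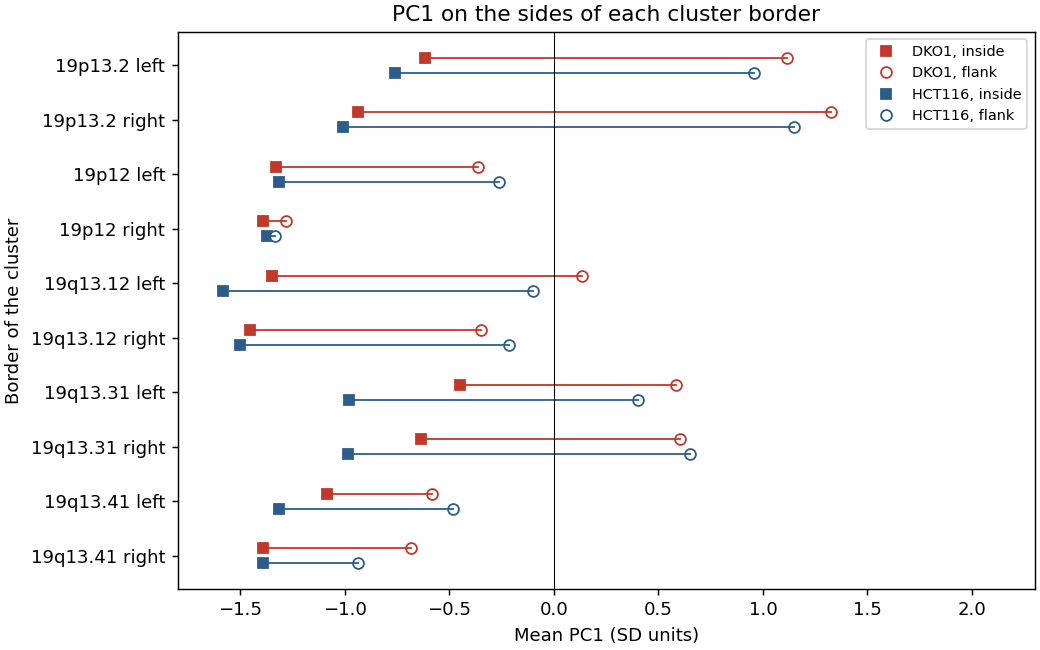
Mean PC1 in SD units (horizontal axis) inside each border of a cluster (filled squares) and in its 500 kb flank (open circles), with the border named on the vertical axis, in DKO1 (red) and HCT116 (blue). The length of each line is the step at that border. The lines of 19q13.31 are shorter in DKO1, and its squares lie further right, at -0.449 and -0.638 in DKO1 against -0.982 and -0.984 in HCT116.

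Of 246 flank bins 18 (7.32%) switched, 10 from B to A and 8 from A to B. This share was close to the 6.43% of the rest of the chromosome without the flanks, and below the 15.1% of all bins. Only 2 runs of at least 3 switched bins were found. In the left flank of 19q13.31 the bins at 43800001 to 43920000 had a mean of 0.138 in DKO1 and -0.202 in HCT116. They are the end of the stretch at 43000001 described above. In the left flank of 19p12 the bins at 19640001 to 19700000 had -0.0322 in DKO1 and 0.122 in HCT116. In the right flank of 19q13.31 PC1 was lower in DKO1 over a run at 45100001 to 45160000, with 0.116 in DKO1 and 0.655 in HCT116, without a change of sign. The run begins at the DKO1 end of the B stretch.

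Domains, regions with more contacts within than across their ends, were fewer in DKO1 in 4 of the 5 clusters. Of the 14 domains of HCT116 in the clusters, 2 (14.3%, exact 95% interval 1.78 to 42.8) were matched by a DKO1 domain at a reciprocal overlap of at least 80%, against 49.3% (41.1 to 57.6) of 150 in the rest of chromosome 19 and 35.3% of all 4289. Of the 4 domains of DKO1 in the clusters 2 (50%) were matched in HCT116, against 83.1% of 89 in the rest and 83.1% of all 1823. The number in DKO1 was 28.6% of that in HCT116 in the clusters and 59.3% in the rest. The density was 0.435 domains per Mb in DKO1 and 1.52 in HCT116 in the clusters, against 1.91 in DKO1 and 3.22 in HCT116 in the rest. The intervals cover counting error only, and take domains as independent, which neighbours are not. The DKO1 list is shorter as a whole, and the part of sequencing depth in these counts was not tested, since no depth is known.

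Other deep B chromatin on the chromosome was counted next. It may hold zinc-finger genes of its own, since 103 ZNF or ZFP genes of the chromosome lie outside the 5 groups. Among domains of the rest with a mean HCT116 PC1 under -1 there were 3 in DKO1 and 16 in HCT116, or 18.8%, and 2 of the 16 (12.5%, 1.55 to 38.3) were matched. The domains of the clusters were not filtered by PC1, and some had an HCT116 mean above -1, such as -0.697 at 11680001 to 11920000. Over all domains of the rest that were B in HCT116 there were 16 in DKO1 and 35 in HCT116, and 34.3% (19.1 to 52.2) of the 35 were matched. The interval of the clusters (1.78 to 42.8) overlaps both of these widely. It overlaps that of the whole rest (41.1 to 57.6) only narrowly. Overlap of intervals is no test of a difference, and none was run. With 14 domains, whether the clusters differ from other deep B chromatin cannot be told, and their difference from the whole rest was not tested.

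In 19p13.2, DKO1 had 1 domain, at 11920001 to 12320000, and HCT116 had 2, at 11680001 to 11920000 and 11920001 to 12800000. The boundary at 11920000 was shared, but the DKO1 domain covered only 45.5% of the long HCT116 one, and the longest stretch of the cluster with no DKO1 domain was 480 kb. In 19p12 the DKO1 domain at 20680001 to 21000000 matched that of HCT116 at 20720001 to 21000000, with an overlap of 87.5%, and the other HCT116 domain, at 20400001 to 20720000, had no match. From 21000001 to 24200000, over 3200 kb, neither line had a domain.

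In 19q13.12 HCT116 had 5 domains and DKO1 1. The DKO1 domain, at 36800001 to 37040000, matched that of HCT116 at 36800001 to 37080000 (85.7%) on the left border of the cluster. The other 4 HCT116 domains, at 37080001 to 37240000, 37200001 to 37600000, 37920001 to 38160000 and 38120001 to 38400000, were not touched by any in DKO1. All 4 lay deep in B, with a mean PC1 between -1.34 and -1.51 in DKO1 and between -1.49 and -1.62 in HCT116. DKO1 thus had no domain over 1260 kb, against 320 kb in HCT116.

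In 19q13.31 each line had 1 domain with the same right end. It spanned 44640001 to 45040000 in DKO1 and 44320001 to 45040000 in HCT116, with an overlap of 55.6%. The 340 kb on the left that it did not hold in DKO1 include the run of bins with the largest difference in PC1. In 19q13.41 DKO1 had 0 domains over the 1700 kb, and HCT116 had 4. They lay at 52280001 to 52600000, 52600001 to 52840000, 53240001 to 53520000 and 53520001 to 53680000. The first holds most of the run with a higher PC1 in DKO1, and its mean PC1 was -1.23 in DKO1 and -1.57 in HCT116. The third had a mean PC1 of -1.49 in each line and was also absent from the DKO1 list. A link between PC1 and the listing of domains was not tested.

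Coverage by domains was taken from the same lists, so it is no separate observation. It was not computed for other deep B chromatin. Domains covered 14.6% of the clusters in DKO1 and 49.6% in HCT116, against 52.1% in DKO1 and 83.7% in HCT116 of the rest of the chromosome. By cluster the covered share was 43.3% in DKO1 and 100% in HCT116 for 19p13.2, and 7.62% in DKO1 and 14.3% in HCT116 for 19p12. It was 10.0% in DKO1 and 77.1% in HCT116 for 19q13.12, 51.4% in DKO1 and 100% in HCT116 for 19q13.31, and 0% in DKO1 and 57.6% in HCT116 for 19q13.41. The covered share was therefore lower in DKO1 in each cluster, and 19p12 was nearly free of domains in both lines.

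**Figure D4:**
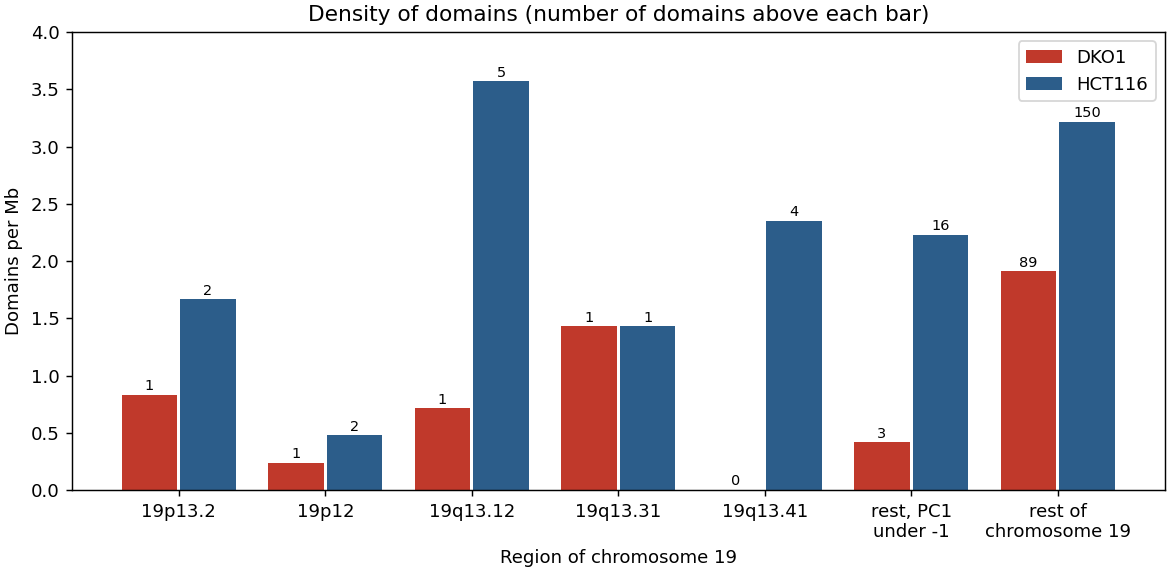
Domains per Mb (vertical axis, with the number of domains above each bar) in DKO1 (red) and HCT116 (blue), for each cluster, for the bins and domains of the rest of chromosome 19 with an HCT116 PC1 under -1, and for the whole rest. In 19q13.12 there is 1 domain in DKO1 against 5 in HCT116, and in 19q13.41 there are 0 against 4.

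Boundaries, the starts and ends of domains, were compared within 40 kb. In the clusters 6 of 8 DKO1 boundaries (75%, exact interval 34.9 to 96.8) were found in HCT116, against 94.9% (89.8 to 97.9) of 137 in the rest of the chromosome and 91.9% genome-wide. Of 23 HCT116 boundaries 9 (39.1%, 19.7 to 61.5) were found in DKO1, against 70.3% (63.3 to 76.6) of 195 in the rest and 44.7% genome-wide. In the rest with an HCT116 PC1 under -1 9 of 29 were found, and in the rest that was B in HCT116 27 of 56 (48.2%), and the share of the clusters lay between these. The domains of the clusters were not filtered by PC1, and the rest may hold zinc-finger genes of its own. The DKO1 boundaries not found in HCT116 were the right end of the domain in 19p13.2, at 12320000, and the left end of that in 19q13.31, at 44640000. Both lay inside a longer HCT116 domain. Of the 9 ends of B stretches that were changes of sign, 3 had a DKO1 boundary within 40 kb of the DKO1 end and 6 an HCT116 boundary within 40 kb of the HCT116 end. Chromosome 19 had 145 boundaries in DKO1 and 213 in HCT116. The share of all positions this near to a boundary was not counted, so nothing is read from the 3 and the 6.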

How the data were processed

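Per the labels' protocols, the Hi-C kit cut fixed chromatin with a pair of restriction enzymes. HOMER 4.6, HiC-Pro and the build hg19 (GRCh37) are listed in the submitters' processing notes, with no role for either tool. The authors deposited 1 PC1 score per 20 kb bin and, on a 40 kb grid, 1 list of domain starts and ends per cell line. The domain caller is not given in the sources used here, and contact maps were not used here.

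Bins in both tracks were joined by position, and bins wholly inside a limit and domains with their midpoint inside it were counted as members. Missing bins in the clusters numbered 1. B stretches were followed across missing bins. The clusters, lists and thresholds were chosen with earlier results of these data known. Regions named are the clusters, their borders, runs of at least 3 bins, the bins with the largest rise and fall per cluster, and the domains. The least negative bins, equal parts of a cluster, bins within a range of PC1, B stretches of at least 700 kb and the promoters were chosen after values were seen. Other centrings, limits, thresholds, windows and overlaps were tried. Run and overlap code was tested on simulated data. Python 3.11.15, numpy 2.4.6, pandas 2.3.3 and scipy 1.17.1 were used.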

Additional observations from a re-analysis of the deposited data

How the results depend on the processing

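No paired analysis was possible because each line has 1 pooled value per bin, which also means that replicates could not be left out in turn. Of 206 values under other settings 161 stayed within the interval of the value in the report (shares), within 1.5 times of it (counts and border steps), or within 1.5 times or 0.05 (differences), 45 moved beyond, and none turned the sign of a difference of at least 0.05. The rest without flanks and the change of 0.3 were chosen after seeing the data. Subtracting the median of the chromosome, whose medians differed by -0.127 (DKO1 minus HCT116), gave differences of 0.248 (19p13.2), 0.105 (19p12), 0.259 (19q13.12), 0.228 (19q13.41), 0.204 (clusters together) and 0.112 (rest). It also gave 0% in A in DKO1 and 0% switched in 19q13.31, and 59.6% in A in DKO1 and 59.7% in HCT116 in the rest. With DKO1 set to the mean and SD of HCT116 over the rest, the differences were 0.0351 (19p12), 0.157 (19q13.41) and 0.131 (clusters together). The difference of 19q13.31 lay between 0.334 and 0.557 under all settings run on it. Limits moved 100 kb inward gave 0% in A in both lines in 19p13.2 and in the clusters together, 0% in A in DKO1 in 19q13.31, and 0% switched in 19q13.31 and together. Limits moved outward gave 24.3% in A in both lines in 19p13.2, 15.6% in HCT116 in 19q13.31, and 4.52% in DKO1 and 4.72% in HCT116 together. With an absolute PC1 of at least 0.5 in both lines, 0% of 19q13.31 was in A in DKO1, 0% of its bins and of the clusters switched, and the rest had 70.5% in A in DKO1 and 0.0595% switched. A change of at least 0.3 in place of 0.5 gave shares of higher bins of 8.33% (19p13.2), 10% (19q13.12), 80% (19q13.31), 11.3% (together) and 9.05% (rest), and 14.3% lower in the rest. Windows of 200 kb gave median border steps of 0.541 in DKO1 and 0.744 in HCT116. Counting domains that touch a cluster gave 2 in DKO1 in 19p13.2 and 2 in HCT116 in 19q13.31. At an overlap of 90% the matched share was 0% in the clusters and 34% in the rest, and at 50% it was 59.3% in the rest. At a tolerance of 0 kb the rest had 73.0% of DKO1 and 51.3% of HCT116 boundaries found. The cause of these moves was not tested beyond the change of setting itself. The depth of the maps is unknown, and what it limits could not be measured.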
